A study of Mus musculus with 6 samples.

Results

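The mucosal NADPH oxidases and their maturation factors were followed in organoids grown from mouse small intestine. They are the 8 genes Duox2, Duoxa2, Duox1, Duoxa1, Nox1, Noxo1, Noxa1 and Cyba, found by symbol among the 27179 genes of the deposited table. The organoids, epithelial cultures grown in drops of Matrigel, came from wild-type (WT) mice and received the active thyroid hormone T3 at 1e-07 M or its vehicle for 17 h. The study compared 3 T3 libraries with 3 vehicle libraries. Whether each library is a separate culture or animal is not stated, and any p-value given here reflects library-to-library spread that could be technical. The genes were chosen by the difference between the T3 and vehicle libraries in these same columns, so their own differences are given as descriptions. Calls among them are counted but are no test of them.

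NADPH oxidases move electrons from NADPH across a membrane to oxygen, making superoxide or hydrogen peroxide. In the gut epithelium the dual oxidase encoded by Duox2 releases hydrogen peroxide at the apical surface, and it must pair with the maturation factor encoded by Duoxa2 to leave the endoplasmic reticulum. Duox1 and Duoxa1 encode the related pair known from airway and thyroid. Nox1 encodes the catalytic subunit of a second epithelial oxidase, best known from the colon. It works with p22phox (Cyba), an organiser (Noxo1) and an activator (Noxa1). In the thyroid, the dual oxidases supply the peroxide used to make thyroid hormone itself.

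The 4 Duox genes lie side by side on chromosome 2 in 67536 bases (mm10, GRCm38). Duox2 (gene ID 214593, minus strand, 32 exons, 122280437 to 122298165) and Duoxa2 (66811, plus strand, 6 exons, 122298900 to 122302885) point away from each other with 734 bases between them. Duoxa1 (213696, minus strand, 9 exons, 122303549 to 122313730) and Duox1 (99439, plus strand, 33 exons, 122315672 to 122347972) repeat that arrangement with 1941 bases between them. The 250 bases before each start site are shown because the pairs, alike in arrangement, stood at very different levels. They are from RefSeq (GRCm38.p6), which held all 8 genes, each on its own gene's strand, 5′ to 3′. The RefSeq start site of Duox2, at 122298227, lies outside the deposited span given above. Between it and the Duoxa2 start site lie 672 bases. Capitals mark AGGTCA on either strand, the hexamer that thyroid hormone receptors bind, and TATAAA on the gene's strand.

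Duox2, chr2:122298228-122298477, minus strand: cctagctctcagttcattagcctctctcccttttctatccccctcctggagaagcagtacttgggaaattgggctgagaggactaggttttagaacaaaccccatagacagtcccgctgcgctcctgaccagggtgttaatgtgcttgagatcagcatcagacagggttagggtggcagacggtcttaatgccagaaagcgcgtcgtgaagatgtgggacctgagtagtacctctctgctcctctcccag
Duoxa2, chr2:122298650-122298899, plus strand: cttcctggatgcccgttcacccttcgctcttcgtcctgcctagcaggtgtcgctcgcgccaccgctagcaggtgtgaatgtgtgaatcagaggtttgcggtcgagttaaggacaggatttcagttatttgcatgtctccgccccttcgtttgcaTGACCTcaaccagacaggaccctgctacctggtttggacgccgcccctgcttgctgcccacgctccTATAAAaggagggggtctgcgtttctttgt
Duoxa1, chr2:122313731-122313980, minus strand: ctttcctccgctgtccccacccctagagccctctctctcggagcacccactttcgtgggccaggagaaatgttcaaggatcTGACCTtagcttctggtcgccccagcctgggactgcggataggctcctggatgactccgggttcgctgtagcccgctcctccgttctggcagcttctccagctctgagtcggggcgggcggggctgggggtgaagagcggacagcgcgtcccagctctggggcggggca
Duox1, chr2:122315422-122315671, plus strand: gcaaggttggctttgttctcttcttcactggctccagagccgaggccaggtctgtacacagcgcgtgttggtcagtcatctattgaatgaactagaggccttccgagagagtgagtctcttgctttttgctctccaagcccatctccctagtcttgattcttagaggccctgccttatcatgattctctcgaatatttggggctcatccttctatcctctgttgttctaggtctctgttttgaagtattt

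AGGTCA occurred, on the opposite strand, at -96 to -91 of the Duoxa2 start site and at -169 to -164 of that of Duoxa1. Of the 8 genes these 2 held it, and 14% of 32851 upstream windows of the same length did. TATAAA stood at -30 to -25 of the Duoxa2 start and in no other of the 8 windows, against 7.59% of all windows. The spaced repeat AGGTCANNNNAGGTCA was in none of the 8 and in 0.0152% of all windows. TTCNNNGAA, the core of sites for STAT factors, was in none of the 8 and in 7.02% of all windows, with both strands searched for either motif. The windows of Duoxa2 and Duoxa1 held 15 and 16 CG dinucleotides, that of Noxo1 37 and that of Nox1 2, beside a median of 6 over all windows. A match or its absence describes these letters only.

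Duox2 stood at 81, 98 and 80 normalized reads in vehicle replicates 1 to 3 and at 382, 289 and 417 in T3 replicates 1 to 3. Every T3 library was above every vehicle library, and the lowest T3 value was replicate 2. The mean went from 86.3 ± 10.1 to 362.7 ± 66.2 (SD, n = 3 each), 4.13-fold higher (log2 fold change 2.05 ± 0.15 SE). Normalized reads are numbers of reads that the authors scaled to make libraries comparable. Each fold change was taken on log2(value + 1), which understates the change of low genes.

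Duoxa2, whose product carries the Duox2 protein to the cell surface, was listed at 9, 12 and 14 with vehicle and at 47, 63 and 42 with T3. The groups did not overlap. Its mean went from 11.7 ± 2.52 to 50.7 ± 10.97, 4.08-fold higher (log2 2.03 ± 0.25 SE). The fold changes of the neighbouring pair thus differed by less than their standard errors, but the T3 libraries were ordered differently. Replicate 2 was the lowest of the T3 libraries for Duox2 and the highest for Duoxa2. Per length, Duox2 exceeded Duoxa2 2.67 ± 0.597 times with vehicle and 2.64 ± 0.950 times with T3 (1.79 ± 0.402 and 1.77 ± 0.639 with GENCODE exon lengths).

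Duox1 was listed at 2, 1 and 2 with vehicle and at 8, 5 and 2 with T3. Duoxa1 was listed at 0 in all 6 libraries. The Duox1 groups met at 2 reads, and no fold is given at such levels. Duox1 and Duox2 also share sequence. Of the distinct 36-base stretches of GENCODE transcripts, 11.7% of those of Duox1 occur in Duox2 and 8.94% of those of Duox2 in Duox1. Reads from such stretches could be assigned to either gene or dropped, so the few Duox1 reads are uncertain. Duoxa2 shared no such stretch with another gene.

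Nox1 (gene ID 237038, chromosome X, 134087146 to 134111708, minus strand, 13 exons) was very low with vehicle, at 5, 5 and 3 normalized reads. It was listed at 12, 13 and 15 with T3, above every vehicle library. The fold was 2.72 (log2 1.45 ± 0.34 SE), from 4.33 ± 1.15 to 13.3 ± 1.53. These values rest on a handful of reads, and Nox1 entered the fit only through its T3 libraries.

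Noxa1, the activator (241275, chromosome 2, 25085667 to 25095205, minus strand, 12 exons), had 71, 82 and 63 normalized reads in the vehicle libraries and 103, 114 and 108 in the T3 libraries. Its groups did not overlap, and the T3 level was 1.505-fold higher (log2 0.59 ± 0.14 SE). Noxa1 overlaps Entpd8 on the opposite strand by 53 exon bases, and Entpd8, an ectonucleotidase, rose 2.55-fold from 315.3 ± 44.7 to 800.3 ± 53.6 (limma adjusted p = 6.62e-06). Whether reads were counted by strand is not given here, and the part of this overlap in the Noxa1 values was not tested.

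Noxo1, the organiser (71893, chromosome 17, 24696234 to 24700530, plus strand, 9 exons), had similar levels in both groups. It stood at 640, 729 and 712 in vehicle and at 655, 696 and 767 in T3 libraries. The groups overlapped, with a log2 fold change of 0.02 ± 0.08 SE. Its sign turned after upper-quartile scaling (-0.02) or with all column totals equal (-0.04), and also without vehicle replicate 1 (-0.03) or T3 replicate 3 (-0.04).

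Cyba, encoding p22phox (13057, chromosome 8, 122424771 to 122432940, minus strand, 6 exons), was the one gene of the 8 with a lower level in every T3 library. It stood at 675, 815 and 730 with vehicle and at 597, 608 and 546 with T3. The mean went from 740.0 ± 70.5 to 583.7 ± 33.1, 1.26-fold lower (log2 -0.34 ± 0.08 SE). Of its 36-base stretches 5.59% occur in other genes.

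**Figure D1:**
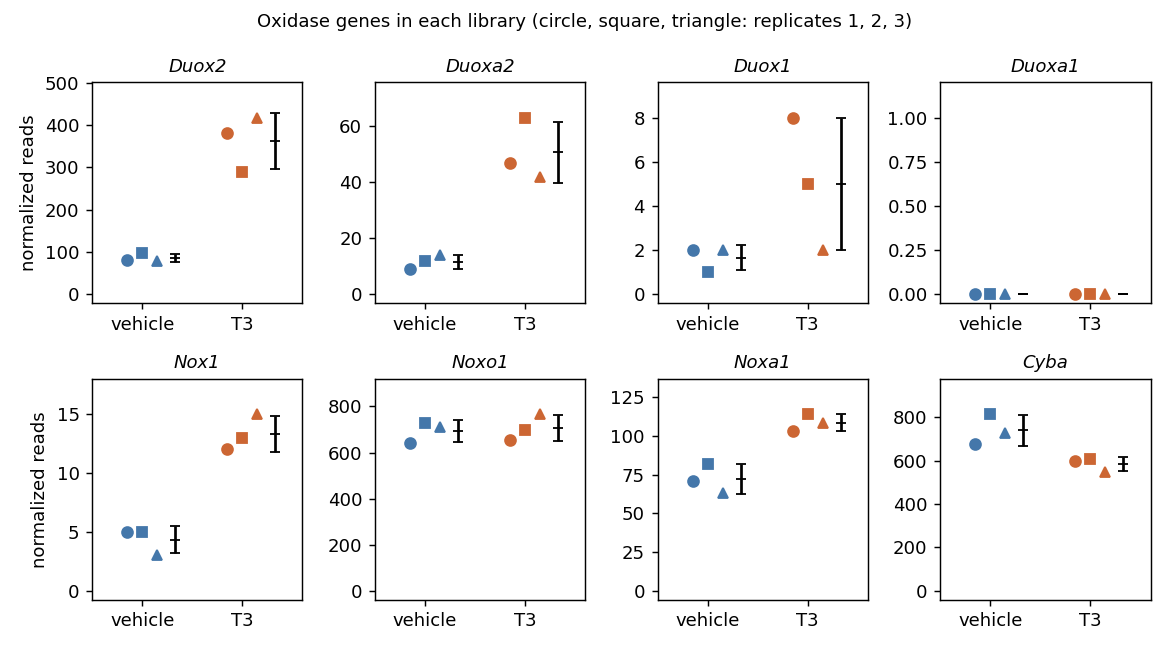
Normalized reads of each of the 8 genes in each library (vertical axes start just below 0 and differ between panels), with circles, squares and triangles for replicates 1, 2 and 3 and the mean ± SD of 3 libraries in black. Duox2, Duoxa2, Nox1 and Noxa1 are higher in every T3 library, Cyba is lower, Noxo1 overlaps, and Duoxa1 is at 0 throughout.

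Of the 8 genes 6 passed the filter of at least 10 normalized reads in at least 3 libraries. In the limma fit over all 13052 genes that passed, 4 of the 6 were called higher with T3 and 1 lower at an adjusted p under 0.05. Calls were common, 44.8% of all genes tested, 24.0% higher and 20.8% lower. The libraries of 4 genes lay wholly higher with T3 and those of 1 wholly lower. Over all genes tested 54.9% had groups that did not overlap, 28.4% higher and 26.5% lower. Nothing is read from these counts, because the 8 genes were chosen with this contrast known. Nox1, among those called higher, also passed the filter only through its T3 libraries. Of all calls 53.6% were higher, but 42.9% after upper-quartile scaling and 38.7% after setting all column totals equal. Under these scalings the log2 values were 2.00 and 1.98 for Duox2, 1.98 and 1.96 for Duoxa2, 1.41 and 1.39 for Nox1, 0.54 and 0.52 for Noxa1, and -0.39 and -0.41 for Cyba.

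The deposited table of the authors gave similar sizes for the well-covered genes. Its log2 fold change for Duox2 was 2.06, and 1.89 after the authors' shrinkage. For the low genes shrinkage moved the value further, from 2.09 to 1.39 for Duoxa2 and from 1.49 to 0.65 for Nox1 in the authors' deposited table. Cyba stood at -0.34 and Noxa1 at 0.58 there before shrinkage.

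**Figure D2:**
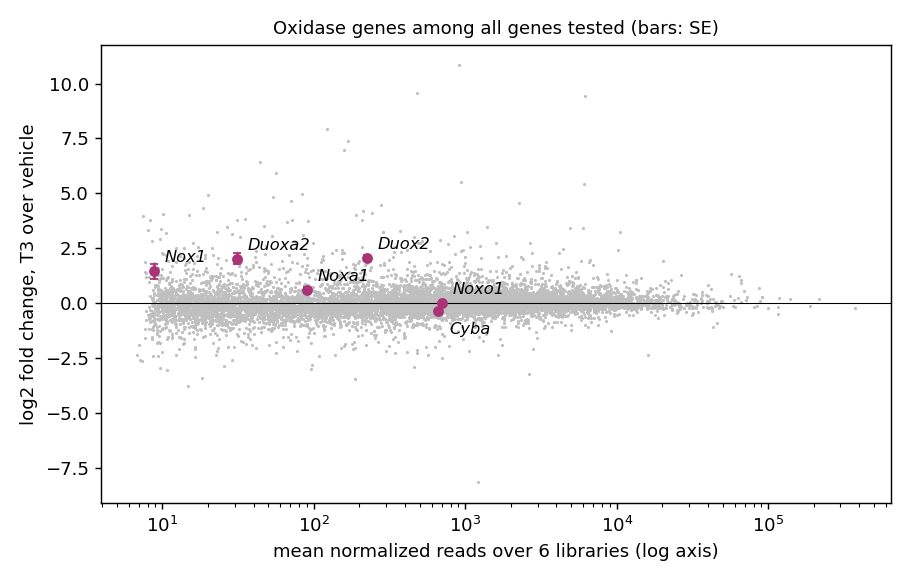
Log2 fold change of T3 over vehicle against mean normalized reads (log axis) for the 13052 genes tested in grey, with the 6 tested oxidase genes and their SE in purple. Duox2 at 2.05 and Duoxa2 at 2.03 lie near the upper edge of the cloud, and Noxo1 and Cyba lie close to 0.

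Among all genes tested, 0.843% had a larger log2 fold change than Duox2, 0.858% than Duoxa2, 1.77% than Nox1 and 7.77% than Noxa1. Below Cyba lay 14.3%. By mean normalized reads, 26.0% of tested genes lay below Duox2, 18.2% below Noxa1, 10.5% below Duoxa2 and 0.383% below Nox1, whereas 43.9% lay below Noxo1 and 42.7% below Cyba.

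Levels of different genes were compared per length, as normalized reads per kilobase (kb) of deposited exon length and per 1000000 of the column total. With vehicle the order was Cyba at 34.3 ± 3.54, Noxo1 at 10.9 ± 0.806, Noxa1 at 1.51 ± 0.211, Duox2 at 0.667 ± 0.0837, Duoxa2 at 0.258 ± 0.0558, Nox1 at 0.0901 ± 0.0242 and Duox1 at 0.0111 ± 0.00378. No neighbours in that order overlapped between libraries. The organiser Noxo1 exceeded its catalytic partner Nox1 by 129 ± 44.3 times per length with vehicle and 40.1 ± 1.34 times with T3. Noxa1 exceeded Nox1 by 17.4 ± 3.51 and 8.28 ± 0.867 times, and Cyba by 402 ± 125 and 98.8 ± 15.6 times. The partner transcripts of the Nox1 oxidase thus stood above Nox1 itself in both groups. These ratios rest on the few Nox1 reads and on its exon length, 1692 bases as deposited and 3307 in GENCODE. With GENCODE lengths Nox1 itself stood at 0.0461 ± 0.0124 with vehicle and 0.135 ± 0.0167 with T3. The ratios to Nox1 were then 187 ± 64.4 and 58.3 ± 1.94 for Noxo1, 35.2 ± 7.10 and 16.7 ± 1.75 for Noxa1, and 574 ± 179 and 141 ± 22.3 for Cyba.

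With T3, Duox2 reached 2.67 ± 0.502 per length and stood beside Noxa1 at 2.17 ± 0.113, and the libraries of those 2 genes overlapped. Duoxa2 followed at 1.07 ± 0.226 and Nox1 at 0.265 ± 0.0326, below Cyba at 25.8 ± 1.27 and Noxo1 at 10.6 ± 0.939. The Duox2 place depends on the exon length used, 4554 bases as deposited and 6771 bases in GENCODE. With GENCODE lengths, chosen after the values were seen, Duox2 came to 1.80 ± 0.337 with T3 and lay below Noxa1 at 2.25 ± 0.117 without overlap.

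**Figure D3:**
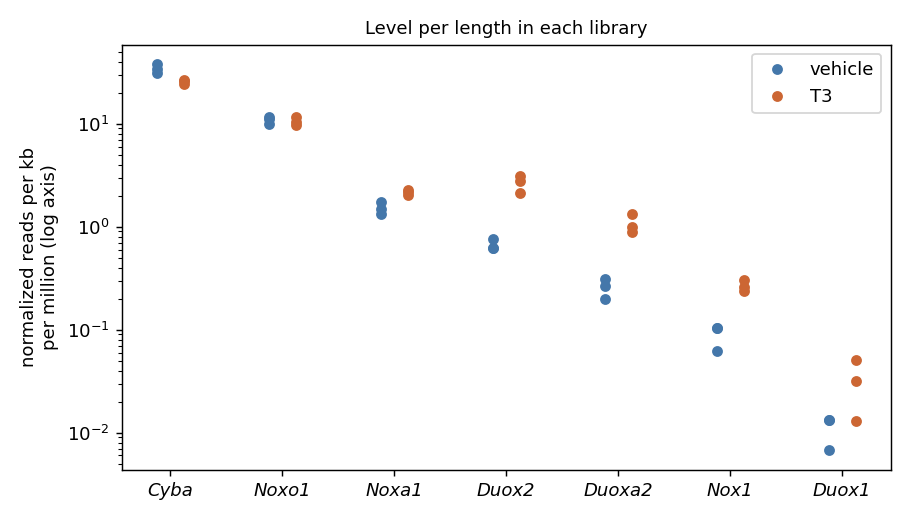
Level per length of 7 genes in each library, as normalized reads per kb per 1000000 on a log axis, with vehicle in blue and T3 in orange. Duoxa1, at 0, cannot be drawn, and the points of Duox2 move from 0.667 with vehicle to 2.67 with T3, level with Noxa1.

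Among the catalytic subunits Duox1, Duox2, Nox1, Nox3, Nox4 and Cybb, Duox2 made up 86.5% ± 2.45 of the summed level per length with vehicle and 89.5% ± 1.36 with T3. Nox1 made up 11.6% ± 2.51 and 9.01% ± 1.52. The sum went from 0.771 ± 0.101 to 2.98 ± 0.529 normalized reads per kb per 1000000. Cybb, the phagocyte catalytic subunit, and Nox3 were listed at 0 in all 6 libraries.

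The organoids carried the markers of their labelled tissue. All 14 epithelial markers were tested, among them Epcam at 38654 to 39458 with vehicle and 43854 to 44612 with T3. The colon markers Car1 and Hoxb13 were at 0. The leukocyte markers Adgre1 and Mpo were at 0 and Ptprc and Csf1r at 0 to 3, so these defining markers were at or near 0. The 11 leukocyte markers summed to 231 to 268 with vehicle and 542 to 575 with T3, mostly from Cd68, Cd14 and Itgam, and Itgam alone went from 81 to 111 with vehicle up to 341 to 356 with T3. Fibroblast and smooth muscle markers summed to 309 to 389 and 255 to 328. Endothelial and neuronal markers summed to 217 to 236 with vehicle and 155 to 196 with T3. Most of this was Lyve1, at 162 to 171 and 110 to 155, which was called lower (limma adjusted p = 0.0478). The endothelial markers Cdh5 and Kdr were at 0. Beside the oxidases, the enterocyte gene Sis, which encodes sucrase, rose from 14507 to 16798 with vehicle up to 35833 to 39662 with T3. Of the 6 small intestinal segment markers, Sis among them, 4 were called higher and 2 were not called. Fabp1, 1 of those 2, stood at 8100 to 9283 with vehicle and at 6476 to 8711 with T3. The stem cell marker Lgr5 fell from 4140 to 5094 down to 1658 to 2469. Sis, Fabp1, Lgr5, Lyve1, Cdh5 and Kdr were named after their values were seen. The part of cell composition in the oxidase values was not tested, and in bulk libraries a change in the number of cells of a type cannot be told apart from a change of RNA per cell. Column totals ran from 28197080 to 29974091 normalized reads. Vehicle replicate 1 and T3 replicate 3 lay farthest from their replicates by mean chi-square per gene. It was 7.89 to 9.92 and 13.6 to 14.7 in their pairs, against 4.71 and 5.06 in the others. Sampling noise alone gives about 1 for raw counts, but these values were scaled and rounded, so that level does not apply exactly.

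Without both libraries the log2 fold changes were 1.90 for Duox2, 1.99 for Duoxa2, 1.46 for Nox1, 0.59 for Noxa1 and -0.36 for Cyba. The libraries of Duox1 and Noxo1 then no longer overlapped, with Noxo1 at -0.09. Leaving out T3 replicate 3 alone also separated the Duox1 groups, at 1 to 2 and 5 to 8 normalized reads.

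Of 45 other genes within 100 kb of the oxidases, 29 were tested, 4 rose and 6 fell, beside the 44.8% called over all genes tested. Their median log2 fold change was -0.09. The 10 calls became 16 after upper-quartile scaling, 12 of them lower, and 17 with all column totals equal, 13 of them lower. Around the Duox locus 4 were tested, and 1 of them, Sord, was called. Sord, which encodes sorbitol dehydrogenase and lies 15100 bases from Duox2, fell 1.52-fold from 7052 ± 256 to 4650.0 ± 217 (limma adjusted p = 5.74e-06). Shf, 920 bases beyond Duox1, stood at 280.7 and 230.3 and was not called.

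Near Noxa1, Entpd8 and Nsmf rose and Pnpla7 and Nrarp fell. Near Cyba, Mvd, an enzyme of cholesterol synthesis whose gene lies 656 bases away, rose 1.22-fold, and Piezo1 and Zfpm1 fell 1.47-fold and 1.32-fold. Near Noxo1, Ndufb10 rose 1.19-fold and Tsc2 fell 1.18-fold, while Gfer and Tbl3, within 78 and 123 bases, were not called. The call of Mvd was lost without vehicle replicate 2 (limma adjusted p = 0.0502), T3 replicate 1 (0.0613) or T3 replicate 2 (0.0512). That of Nsmf was lost without any one of vehicle replicates 1 and 3 and T3 replicates 1 and 2, at limma adjusted p values of 0.051 to 0.0768.

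**Figure D4:**
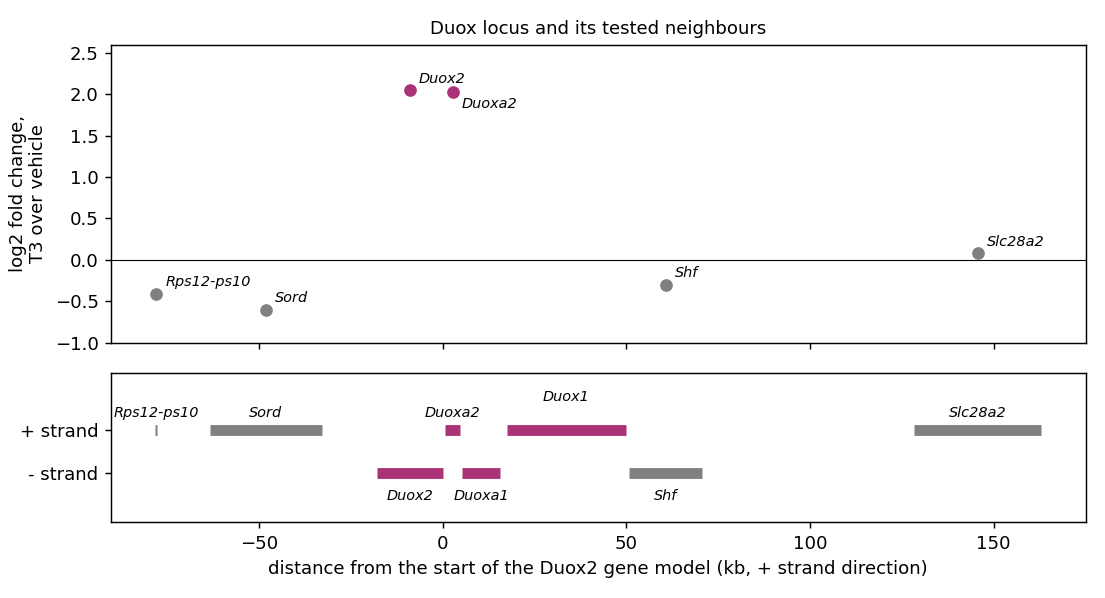
Log2 fold change of T3 over vehicle (top) and gene models on each strand (bottom) against the distance in kb from the start of the Duox2 model, with the 4 Duox genes in purple and tested neighbours in grey. Duox2 and Duoxa2 stand above 2, and the 4 neighbours lie between -0.60 and 0.09.

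The genes around the oxidases were described with 7 lists of 107 genes, of which 78 were tested. The lists were chosen with earlier results of these data known, so their counts, medians and p-values describe them and are no independent support. In limma's fit 31 rose and 14 fell, with a median log2 fold change of 0.09 beside -0.0089 over all genes tested. Upper-quartile scaling gave 26 and 16, and equal column totals gave 26 and 22. In the reported fit 24.0% of all genes tested were called higher and 20.8% lower, the shares to set beside each list.

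Of the receptors and signal factors known to act upstream of the epithelial oxidases, 11 of 21 tested genes rose and 1 fell, with a median of 0.21. Nod2, an intracellular sensor of bacterial peptidoglycan, stood at 27, 23 and 33 with vehicle and at 407, 367 and 394 with T3. That is a 13.7-fold rise (log2 3.78 ± 0.15 SE, limma adjusted p = 7.62e-08), with no overlap. Irf1, an interferon-response factor, rose 6.63-fold from 706 ± 48.3 to 4681 ± 164 (limma adjusted p = 1.48e-09). Tlr2, a receptor for bacterial lipoproteins, rose 4.63-fold from 23.7 ± 3.06 to 112.7 ± 4.04 (limma adjusted p = 4.04e-06).

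Il22ra1, the epithelial subunit of the interleukin 22 receptor, rose 1.48-fold from 1345 ± 22.0 to 1986 ± 74.3 (limma adjusted p = 7.65e-06). Tlr5, the flagellin receptor, was the gene that fell, 1.94-fold from 49.7 ± 8.96 to 25.0 ± 2.65 (limma adjusted p = 0.00361). It was chosen for naming after its values were seen. Nfkb1 at 3759 to 4113 and 3732 to 3838 and Myd88 at 858 to 912 and 928 to 1049, both named after their values were seen, were not called.

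Inducible mucosal defence genes rose in 6 of 8 tested cases, Zbp1 among them, and none fell, with a median of 0.61. Over all genes tested, 24.0% were called higher and 20.8% lower. Nos2, the inducible nitric oxide synthase, went from 17, 36 and 24 to 109, 104 and 81, a 3.85-fold rise (limma adjusted p = 0.000236). Il18, an epithelial cytokine, rose 2.90-fold from 95.7 ± 9.50 to 278.7 ± 17.8, and the lectin gene Reg3b rose 1.66-fold. Zbp1, a nucleic acid sensor, was listed at 0, 4 and 1 and at 15, 20 and 23, and it was tested only because of its T3 libraries. Of the 17 listed genes 9 averaged under 10 normalized reads. Lcn2, Saa1, Saa2, Saa3, Cxcl1, Cxcl2, Cxcl5, S100a8 and S100a9, genes of acute inflammation named after their values were seen, did not exceed 5 in any library.

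Enzymes that consume hydrogen peroxide went both ways, with 3 of 11 tested genes higher and 2 lower and a median of -0.02. Gpx2, the gastrointestinal glutathione peroxidase, was listed at 14054, 13161 and 14503 with vehicle and at 27626, 24029 and 31804 with T3. It rose 1.99-fold (log2 0.99 ± 0.09 SE, limma adjusted p = 1.66e-05). Its T3 libraries had the same order as those of Duox2, but its vehicle libraries had the reverse order. Gpx1 rose 1.28-fold and Prdx5, a peroxiredoxin, 1.29-fold. Cat, the catalase gene, fell 1.43-fold from 7854 ± 164 to 5493 ± 151 (limma adjusted p = 4.6e-06), and Prdx6, named after its values were seen, fell 1.12-fold. The secreted and granule peroxidases Lpo, Epx and Mpo, also named after their values were seen, were at 0 or 1.

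Superoxide, thioredoxin and glutathione genes split into 8 higher and 5 lower of 17 tested, with a median of 0.03. Srxn1, which repairs oxidised peroxiredoxins, rose 1.88-fold from 1406 ± 77.1 to 2638 ± 65.6 (limma adjusted p = 6.69e-07). Txn1, thioredoxin, rose 1.34-fold and Txnrd3 1.40-fold. Nqo1, a quinone reductase, fell 1.39-fold from 1275 ± 55.9 to 916 ± 61.6 (limma adjusted p = 0.000192). Glutathione synthesis genes differed among themselves, since Gclc and Gclm were called lower and Gss higher (named after their values were seen).

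Genes that supply NADPH, the electron donor of the oxidases, were called lower in 5 of 13 cases and higher in 2, with a median of -0.07. The other 6 were not called. Among these were Tkt at 36740 to 39735 and 39588 to 41460, Pgd at 14576 to 15907 and 13956 to 14697, and Idh1 (named after their values were seen). Nnt, the mitochondrial transhydrogenase, fell 1.70-fold from 3139 ± 64.3 to 1849 ± 57.5 (limma adjusted p = 5.9e-07). Idh2, mitochondrial isocitrate dehydrogenase, fell 1.47-fold, Me1, malic enzyme, 1.29-fold, and Nadk2, a mitochondrial NAD kinase, 1.16-fold. G6pdx, which feeds the pentose phosphate pathway, was the other gene that was lower, at 3976 to 4150 and 3457 to 3798. The calls of Taldo1 and Aldh1l1, higher by 1.11-fold and 1.17-fold, were both lost after upper-quartile scaling, with equal totals, without vehicle replicate 1 and without T3 replicate 1. G6pdx, Taldo1 and Aldh1l1 were named after their values were seen.

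Of 10 listed other oxidase subunits and activators 4 were tested, 1 was called, and Rac1, the GTPase that activates Nox1 complexes, rose 1.16-fold from 8081 ± 141 to 9372 ± 111 (limma adjusted p = 0.000892). The median of the 4 was -0.0024, and the phagocyte subunits Ncf1 and Ncf4 were at 0 to 2. Of genes of thyroid hormone synthesis 4 of 9 were tested, with a median of -0.28. Iyd, the iodide-recycling deiodinase, fell 1.62-fold from 29.0 ± 1.00 to 17.7 ± 2.89 (limma adjusted p = 0.0264), a call lost without any one of the libraries other than T3 replicate 3, at limma adjusted p values of 0.0555 to 0.0797. Tshr, the thyrotropin receptor gene, was at 0 in all libraries and, like Ncf1 and Ncf4, was named after its values were seen.

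**Figure D5:**
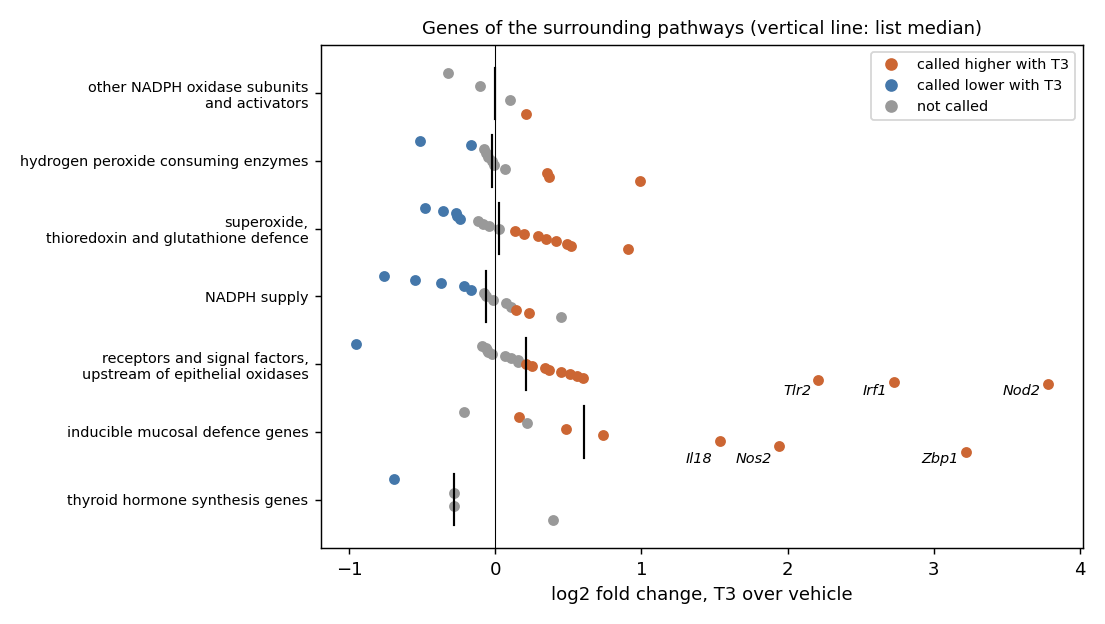
Log2 fold change of T3 over vehicle for the 78 tested genes of the 7 lists, coloured by the call at an adjusted p under 0.05, with a vertical line at each list's median and genes above 1.5 named. Medians run from -0.28 for thyroid hormone synthesis to 0.61 for inducible defence genes, and Nod2, Zbp1, Irf1 and Tlr2 lie farthest to the right.

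The genes whose levels over the 6 libraries followed Duox2 most closely, by Pearson's correlation of log2(value + 1), were Fam151a (r = 0.9995), Casp1 (0.9990), Fam20c (0.9983), Psma1 (0.9977) and Il22ra1 (0.9976). Fam151a was low, at 3, 4 and 3 with vehicle and at 29, 21 and 36 with T3. It was tested only because of its T3 libraries. Casp1, which encodes the protease that matures interleukin 18, stood at 2525, 2670 and 2536 with vehicle and at 4055, 3736 and 4052 with T3. In all 5 genes T3 replicate 2 was the lowest T3 library, as in Duox2. Such a shared order is favoured by choosing the genes on this correlation over the same libraries. For Nox1 the closest were Yipf6 (0.9986), Zfp386 (0.9983), Ubxn4 (0.9979), Qrsl1 (0.9958) and Perp (0.9955). These correlations describe 6 points that share the group difference, and 15.9% of tested genes had an r above 0.9 with Duox2 and 12.1% with Nox1.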

How the data were processed

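Per the labels' protocols, RNA came from organoids given T3 or vehicle for 17 h, and libraries were directional. The submitters' processing notes list STAR, Subread and DESeq2 among the authors' tools without versions, and the build mm10 is per the file headers. The authors' deposited values are whole-number normalized reads of each gene, a score and not a count, so the raw depth of a library is not known from them. Their mean over the 6 columns matched the deposited mean column within 0.833. The authors also deposited log2 fold changes with standard errors. The authors' p-values were not used, and a second deposited table was not used.

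Genes reaching 10 normalized reads in 3 or more libraries (13052) were fitted with limma 3.58.1 (R 4.3.3) on log2(value + 1) with a variance trend, and p-values were adjusted by Benjamini-Hochberg over all of them. Calls have an adjusted p under 0.05. The script was tested on simulated data. The members and lists were chosen with earlier results of these data known. Named genes are the 8 members, per list up to 4 called genes by smallest p-value (up to 2 with the highest level where none was called), all called genes within 100 kb of a member, and the 5 genes most correlated with Duox2 and with Nox1. Alternatives were other scalings, filters, pseudocounts, variance models (statmod 1.5.0), thresholds, a replicate block and leaving out libraries.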

Additional observations from a re-analysis of the deposited data

How the results depend on the processing

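The counts of calls over all genes and over the pathway lists stayed within 1.5 times of the reported ones under the alternatives, with these exceptions. Lower calls over all genes were 1753 at an adjusted p under 0.01 against 2716. Lower pathway genes were 22 with equal column totals against 14. Counts of single lists left this range more often. The higher count of NADPH supply genes and the lower count of thyroid hormone synthesis genes each moved in 9 alternatives. The lower count moved in 2 for receptors and signal factors. It moved in 1 each for peroxide consuming enzymes and inducible defence genes. Called neighbours numbered 16 with upper-quartile scaling (12 lower) and 17 with equal column totals (13 lower) against 10 (6 lower). Neighbours that were higher numbered 2 without the variance trend and 2 at an adjusted p under 0.01, against 4. Without both vehicle replicate 1 and T3 replicate 3, an alternative chosen after seeing the data, 2 members lay wholly lower with T3 against 1, and 5 wholly higher against 4.

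Leaving out each library in turn gave 4548 to 5951 calls over all genes, 2477 to 3196 higher and 2071 to 2755 lower. It gave 38 to 46 called pathway genes, 8 to 11 called neighbours, and 2 to 4 neighbours that were higher. Duox2 ran from 1.938 to 2.202 on the log2 scale over these sets, Duoxa2 from 1.86 to 2.16, Nox1 from 1.251 to 1.54, Noxa1 from 0.50 to 0.69 and Cyba from -0.40 to -0.27. Noxo1 ran from -0.04 to 0.08 and so had no stable sign. With a pseudocount of 5 the Nox1 value was 0.98.

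With the replicate number as a replicate block 5405 genes were called against 5851 and 44 pathway genes against 45. Deviations of libraries that share a number correlated at -0.07, 0.03 and -0.06, so the numbers were not taken as pairs. Of the named genes of the lists and neighbourhoods, Iyd was not called in that replicate block fit (limma adjusted p = 0.0554). Values of a few reads, as in Nox1 and Duox1, limit what can be said of those genes.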
